A study of Mus musculus with 8 samples.

Results

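The 55 genes described here encode the secreted ligands of the Wnt pathway, their receptors, and the proteins that modify, antagonise or dampen them, in whole skin of mice that lost Nampt in the epidermis. They were taken by symbol from the 36333 genes of the deposited table: every Wnt, Fzd, Dkk, Sfrp or Rspo gene with a number, together with Frzb, Wif1, Notum, Lrp5, Lrp6, Axin1, Axin2, Nkd1, Nkd2, Znrf3, Rnf43, Porcn, Ctnnb1 and Tcf7. The rule uses symbols and no measured value. There were 19 ligands, 12 receptors (10 Frizzled receptors and the co-receptors Lrp5 and Lrp6), 11 secreted inhibitors, 4 R-spondins, 4 intracellular feedback proteins, 2 ubiquitin ligases of receptor turnover, the ligand-modifying enzyme Porcn, and the transducers Ctnnb1 (β-catenin) and Tcf7. Poly(A) RNA-seq compared 4 libraries of control mice (genotype Nampt flox/flox) with 4 of Nampt-cKO mice (Nampt flox/flox; KRT5-CreERT2+). All mice were C57BL/6J males labelled as 8 weeks old, and both groups carried the floxed alleles. In the study's methods 8 weeks is the age of Nampt-cKO mice at the tamoxifen injections, before the skin was taken. Nampt-cKO mice had been given tamoxifen intraperitoneally at 100 μg/g once a day on 5 days, and by the study's methods the skin was taken on Day 19. Tamoxifen is labelled for the Nampt-cKO libraries alone. The study's time line of the injections names control and Nampt-cKO mice, and its methods give the drug to control mice of the UVB experiment, so these controls may have received it too. The Krt5 promoter drives CreERT2 in basal keratinocytes and the outer root sheath of hair follicles, and whole skin also holds dermal, immune and endothelial cells, which the Cre does not target. The labels number the replicates and name no animal for them, so the spread behind each p-value is that between libraries and could be technical.

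Wnt proteins are lipid-modified by Porcn, carried to the cell surface and bound by a Frizzled receptor with Lrp5 or Lrp6. Binding stops the Axin-based destruction complex from degrading β-catenin, which then enters the nucleus and acts with TCF/LEF factors on target genes, Axin2 among them. R-spondins prolong the signal by holding back Rnf43 and Znrf3, which remove Frizzled from the membrane. Sfrp proteins, Frzb and Wif1 bind the ligands, Dkk1, Dkk2 and Dkk4 act on Lrp co-receptors, and Notum removes the lipid from Wnt. The divergent Dkk3 is grouped with the inhibitors by its name, and an action on Lrp co-receptors is not established for it. In skin the pathway is known for hair follicle formation, hair growth and the maintenance of basal stem cells.

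Libraries held 39390895 to 53762935 exon reads. Nampt was at 60.4 to 77.7 CPM (exon reads scaled to a library of 1000000 reads, TMM-normalized) in the controls and at 32.3, 37.5, 76.1 and 49.6 CPM in the Nampt-cKO libraries, a log2 fold change of −0.53 (SE 0.24, edgeR adjusted p = 0.0974). The library labelled Nampt-cKO replicate 3 therefore went against its label for the deleted gene, and counts of members by role and of the pathway lists are given with and without it. Markers of skin were present: the summed level of 6 basal keratinocyte genes was 13316 to 15055 CPM in controls and 19201 to 26868 CPM in Nampt-cKO skin, with 3 of 6 higher. Krt14 alone went from 2581 to 9348 CPM on average. Krt5, Trp63 and Col17a1 were not called (log2 fold changes 0.18, 0.11 and −0.31). The suprabasal list was lower in 4 of 5 genes (15363 to 16855 against 1787 to 6704 CPM summed), the T cell list in 4 of 4 (25.0 to 33.5 against 1.24 to 5.39 CPM), and the list of Langerhans and dendritic cells in 4 of 4 (629 to 1044 against 32.5 to 121.6 CPM). Neutrophil genes were higher in 4 of 4 tested (3.01 to 3.78 against 32.3 to 722 CPM) and melanocyte genes in 5 of 5 (31.1 to 56.9 against 63.9 to 138.7 CPM). The 11 hair shaft and matrix genes in the table summed to 31.4 to 40.8 and 23.7 to 47.9 CPM, with 2 of 4 tested lower (Krt31 and Foxn1), and the 8 inner root sheath genes to 16.0 to 23.4 and 18.3 to 34.5 CPM, with 1 of 4 tested higher and 1 lower. Of the remaining lists, dermal papilla had 2 of 10 higher and 1 lower, hair follicle stem cells 1 of 7 higher, sebaceous gland 2 of 6 lower, fibroblasts 1 of 7 higher and 3 lower, adipocytes 2 of 6 lower, endothelium 1 of 6 lower, macrophages 2 of 5 higher and 1 lower, Schwann cells 1 of 4 higher and skeletal muscle 0 of 7 in either direction. The part of these markers in the results below was not tested, and in whole skin fewer cells of a type and less RNA per cell cannot be told apart.

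Wnt pathway transcripts moved in both directions. Of the 55 members, 48 had enough reads to be tested, and 12 were higher and 14 lower in Nampt-cKO skin at an adjusted p under 0.05 (edgeR's quasi-likelihood test, Benjamini-Hochberg adjustment over all genes). That is 54.2% of the members tested, beside 45.7% of all 17286 genes tested. Higher calls made up 23.8% and lower calls 22% of all genes, so both directions were close to even in the background as they were among the members. The median absolute log2 fold change was 0.62 over the members and 0.48 over all genes. The largest log2 fold changes were those of the ligand Wnt3 and the R-spondin Rspo3 among those that fell, and Porcn and Sfrp1 among those that rose. Without the library labelled Nampt-cKO replicate 3, 11 members were higher and 12 lower, and all of these were among the calls of the 8 libraries. By role that left 1 ligand higher and 5 lower and 2 intracellular feedback genes lower, with the counts of the other roles as in all 8 libraries. The 7 members that were not tested had few or no reads: Wnt8b had no read in any library, Wnt1 2 reads over the controls and 0 over Nampt-cKO skin, Wnt2 32 and 27, Wnt8a 42 and 4, Dkk1 1 and 4, Dkk4 0 and 2, and Sfrp4 72 and 6, where 48 of the 72 came from control 3. No read over a group allows a level of up to 0.0152 CPM in controls and 0.0155 CPM in Nampt-cKO skin (3 reads, counting error only).

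**Figure D1:**
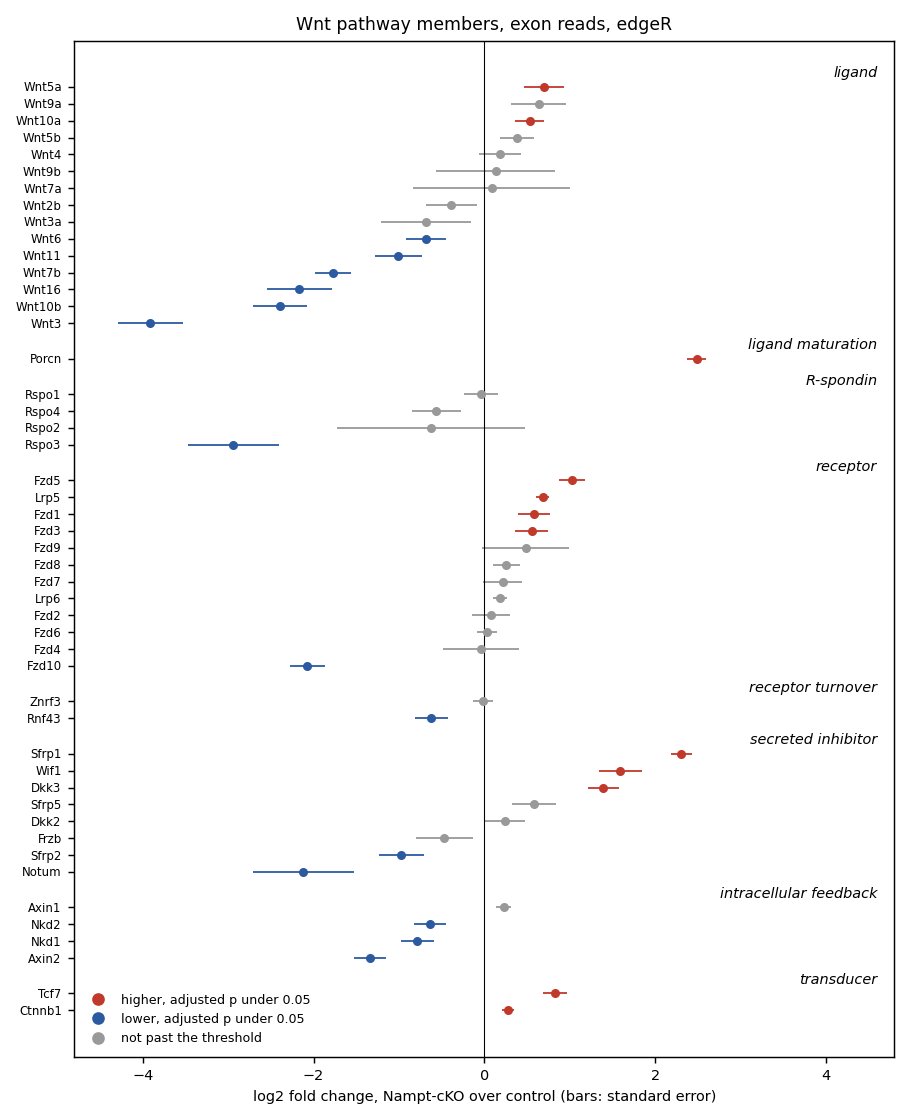
Log2 fold change of Nampt-cKO over control skin (horizontal axis) for the 48 members tested, grouped by role, with standard errors as bars. The 12 members called higher are in red, the 14 called lower in blue and the other 22 in grey; Wnt3 at −3.91 and Porcn at 2.48 mark the ends.

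The promoters of 6 of the members called are shown, as the sequence before a RefSeq start site of each gene. They are those of Wnt3, Wnt10b and Wnt16, the ligands that fell furthest, and of Wnt11, which fell and carries TCF/LEF letters. Axin2, the classical β-catenin target, and Wif1, which rose, are the others. Each line is the 250 bases before the RefSeq start site (GRCm38.p6), written 5′ to 3′ on the strand of the gene, with CTTTGA or CTTTGT, on either strand, in capitals.
Wnt3 (chr11:103773925-103774174, plus strand): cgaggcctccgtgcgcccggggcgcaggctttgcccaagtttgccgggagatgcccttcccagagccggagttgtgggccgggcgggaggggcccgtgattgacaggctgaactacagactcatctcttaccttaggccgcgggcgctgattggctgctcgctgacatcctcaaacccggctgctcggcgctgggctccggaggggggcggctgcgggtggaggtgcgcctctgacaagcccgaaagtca
Wnt10b (chr15:98778151-98778400, minus strand): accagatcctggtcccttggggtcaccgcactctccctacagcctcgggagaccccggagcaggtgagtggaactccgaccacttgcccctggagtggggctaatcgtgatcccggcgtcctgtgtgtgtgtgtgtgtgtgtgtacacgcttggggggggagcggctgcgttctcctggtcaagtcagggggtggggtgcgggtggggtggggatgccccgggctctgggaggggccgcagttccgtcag
Wnt16 (chr6:22287977-22288226, plus strand): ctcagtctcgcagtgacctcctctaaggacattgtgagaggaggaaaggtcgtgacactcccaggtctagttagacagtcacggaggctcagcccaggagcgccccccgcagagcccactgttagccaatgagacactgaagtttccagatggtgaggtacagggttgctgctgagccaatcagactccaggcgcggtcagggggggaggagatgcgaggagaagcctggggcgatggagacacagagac
Wnt11 (chr7:98834862-98835111, plus strand): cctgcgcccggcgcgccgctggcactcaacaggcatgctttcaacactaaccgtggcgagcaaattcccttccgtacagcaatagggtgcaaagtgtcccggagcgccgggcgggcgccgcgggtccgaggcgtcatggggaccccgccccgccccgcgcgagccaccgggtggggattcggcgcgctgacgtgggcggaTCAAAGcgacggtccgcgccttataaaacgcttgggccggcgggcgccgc
Axin2 (chr11:108920099-108920348, plus strand): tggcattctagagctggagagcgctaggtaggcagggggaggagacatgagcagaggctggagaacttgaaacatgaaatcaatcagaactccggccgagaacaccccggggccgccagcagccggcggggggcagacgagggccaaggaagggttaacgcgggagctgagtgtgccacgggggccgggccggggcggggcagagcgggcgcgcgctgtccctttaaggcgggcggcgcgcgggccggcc
Wif1 (chr10:121033754-121034003, plus strand): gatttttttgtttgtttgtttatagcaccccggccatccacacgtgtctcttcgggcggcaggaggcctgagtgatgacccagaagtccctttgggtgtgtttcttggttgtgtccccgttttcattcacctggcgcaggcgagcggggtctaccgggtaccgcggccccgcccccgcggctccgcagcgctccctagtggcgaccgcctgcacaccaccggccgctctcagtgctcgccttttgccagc
The Wnt11 line holds 1 match, read as CTTTGA on the opposite strand and starting 50 bases before the start site. As counted by the authors, Wnt11, Wnt16, Wnt10b and Axin2 begin upstream of the RefSeq site used. Wnt11 begins at 98834916, so its match lies within the gene as counted. Wnt3 has its match, CTTTGT, 19 bases into the transcript and so outside the line. RefSeq windows from 250 bases before to 50 after the start were at hand for 35 members, some with several start sites, which gave 41 windows. Of these, 22.0% held the letters, beside 31.2% of 32851 windows of all genes. The share was 15.4% in 13 windows of members that were lower and 14.3% in 7 windows of members that were higher, and none of the 5 windows of Axin2, Nkd1, Nkd2 and Rnf43 held a match. Such letters are a description of the window and not a binding site, and a second Wnt11 start site had none.

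Among the ligands, 6 of 15 tested fell and 2 rose. Wnt3, a β-catenin-activating ligand made by follicular and epidermal keratinocytes, had 33.8, 39.3, 36.4 and 54.2 CPM in controls 1 to 4 and 5.19, 1.85, 1.62 and 2.19 CPM in Nampt-cKO replicates 1 to 4. All Nampt-cKO libraries lay far below all controls, and replicate 1 kept the most. Its log2 fold change was −3.91 (SE 0.38, edgeR adjusted p = 6.86e-05), or 15.0-fold lower. Wnt3 lies on chromosome 11 at 103774175 to 103818021 (GRCm38), and its neighbour Wnt9b, 24353 bases away with no gene between, was barely transcribed in either group at 0.0815 to 0.384 and 0.104 to 0.572 CPM.

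Wnt7b, a ligand of the hair follicle bulge and the epidermis, was among the 3 most abundant Wnt genes of control skin. It had 104, 107, 114 and 112 CPM in controls and 45.0, 36.7, 21.6 and 24.9 CPM in Nampt-cKO libraries, with a log2 fold change of −1.77 (SE 0.21, edgeR adjusted p = 1.88e-04). Wnt10b, known for promoting the growth phase of the mouse hair cycle, had 11, 9.60, 10.6 and 11.5 CPM in controls against 3.26, 1.75, 1.03 and 2.08 CPM, a log2 fold change of −2.39 (SE 0.32, edgeR adjusted p = 3.15e-04). For both genes every Nampt-cKO library lay below every control. Wnt16, best known for its role in cortical bone, was at 9.72, 7.90, 7.17 and 11.7 CPM and then at 0.852, 2.23, 3.32 and 1.72 CPM. Its groups did not overlap either, with a log2 fold change of −2.17 (SE 0.38, edgeR adjusted p = 0.00143).

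Wnt11, a ligand of β-catenin-independent signalling, fell less. It had 5.18, 7.62, 6.59 and 6.23 CPM in controls and 4.85, 2.68, 2.14 and 3.07 CPM in Nampt-cKO skin, where replicate 1 came close to control 1 (log2 fold change −1.01, SE 0.27, edgeR adjusted p = 0.0139). Wnt6 and Wnt10a are neighbours on chromosome 1 (74754342 to 74785322 and 74792019 to 74804176, GRCm38), 6696 bases apart, and went opposite ways. Wnt6 had 8.01, 10.7, 13.2 and 12 CPM in controls and 8.65, 6.22, 4.58 and 7.79 CPM in Nampt-cKO libraries (log2 fold change −0.69, SE 0.23, edgeR adjusted p = 0.0363). Wnt10a, whose loss in people causes ectodermal dysplasia with missing teeth and sparse hair, had 53.7, 52.8, 56.7 and 56.0 CPM in controls and 91.0, 76.1, 52.5 and 96.6 CPM in Nampt-cKO libraries (log2 fold change 0.53, SE 0.17, edgeR adjusted p = 0.0263). For Wnt6, Nampt-cKO replicate 1 lay within the control range and the other 3 below it, and for Wnt10a, replicate 3 lay just below the lowest control and the other 3 above the highest. The ratio of Wnt10a to Wnt6 in CPM ran from 4.31 to 6.70 in controls and from 10.5 to 12.4 in Nampt-cKO libraries, without overlap. The genes had been called in opposite directions in the same libraries, so the ratio is no separate support for either call. Both calls were lost without any 1 of several libraries: Wnt6 without controls 2, 3 or 4 or Nampt-cKO replicates 2 or 3 (edgeR adjusted p = 0.0692 to 0.101), and Wnt10a without any control or Nampt-cKO replicates 1 or 4 (edgeR adjusted p = 0.0547 to 0.0726).

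Wnt5a, the main ligand of planar polarity and Ror signalling, had 17.2, 17.8, 20.4 and 20.2 CPM in controls and 18.3, 43.2, 34.7 and 26.3 CPM in Nampt-cKO libraries. Replicates 2 to 4 stood above all controls and replicate 1 within them (log2 fold change 0.70, SE 0.23, edgeR adjusted p = 0.0325), and the call was lost without any 1 control or without Nampt-cKO replicate 2 or 3 (0.0586 to 0.0858). Wnt4, expressed in basal keratinocytes, did not pass the test: 90.9, 97.2, 101 and 75.3 CPM in controls lay inside the spread of 64.6, 162, 105 and 81.8 CPM in Nampt-cKO skin (log2 fold change 0.18, edgeR adjusted p = 0.583). Wnt3a split the Nampt-cKO libraries. Controls had 8.49, 7.68, 7.18 and 7.86 CPM, Nampt-cKO replicates 2 and 3 had 8.41 and 7.80 CPM, and replicates 1 and 4 had 1.74 and 1.46 CPM, so no difference between the groups was called (log2 fold change −0.68, edgeR adjusted p = 0.323). Wnt2b, Wnt5b, Wnt7a, Wnt9a and Wnt9b had log2 fold changes between −0.39 and 0.63 and were not called, at group means of 0.238 to 7.12 CPM.

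**Figure D2:**
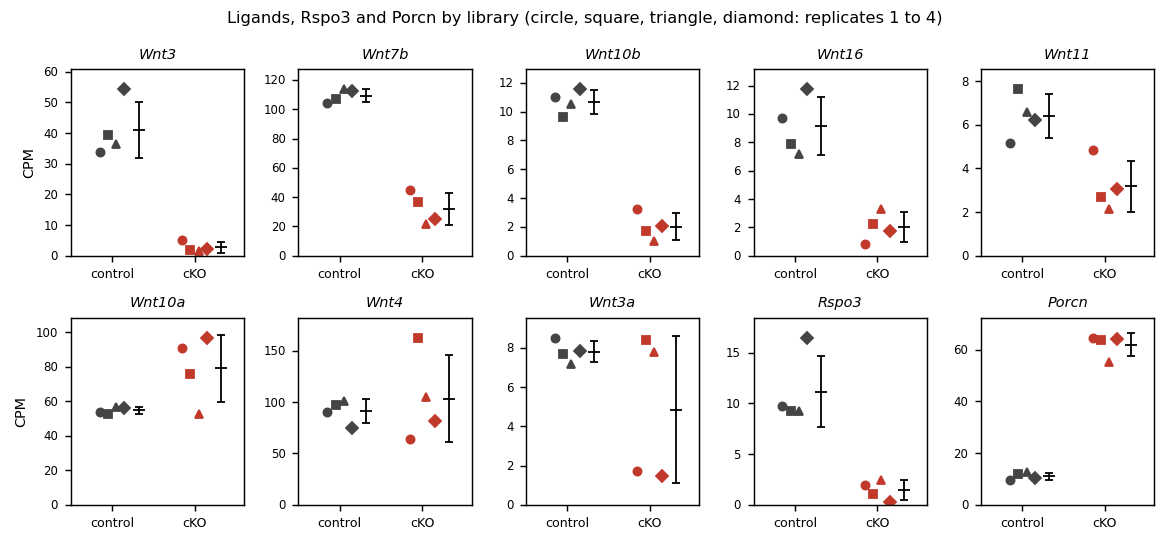
TMM-normalized CPM (vertical axes from 0) in each library for 8 ligands, Rspo3 and Porcn; symbols mark replicates 1 to 4 of each group and black bars the mean ± SD. Wnt3, Wnt7b, Wnt10b, Wnt16, Wnt11, Rspo3 and Porcn separate the groups, while Wnt10a, Wnt4 and Wnt3a overlap, Wnt3a with Nampt-cKO replicates at both 1.46 and 8.41.

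The mix of ligands differed between the groups, and on the RPKM scale so did its total. RPKM is per exon length and so allows genes to be compared within a library. The 19 ligands summed to 95.6 ± 3.92 in controls and 75.3 ± 11.2 in Nampt-cKO skin (SD, n = 4). All Nampt-cKO libraries (62.2 to 89.1) lay below all controls (90.8 to 100.0). RPKM was scaled by the authors without the TMM factors and to a library total other than the summed exon reads. At a like CPM, RPKM can be lower in Nampt-cKO skin. Lrp6 had 104 CPM and 9.50 RPKM in control 1 but 105 CPM and 8.97 RPKM in Nampt-cKO replicate 2. The separation of the sums is therefore stated for RPKM only. It does not hold for CPM per exon length, where the sum of Nampt-cKO replicate 2 falls within the controls. Wnt10a, Wnt7b and Wnt4 each held between 17.4% and 26.0% of the ligand RPKM in every control. Wnt10a went from 25.3% ± 0.591 to 43.7% ± 9.84, Wnt4 from 21.6% ± 2.83 to 29.1% ± 9.73, Wnt7b from 22.4% ± 0.186 to 7.84% ± 2.40 and Wnt3 from 10.8% ± 2.20 to 0.875% ± 0.549. The shares of Wnt10a, Wnt7b and Wnt3 did not overlap between the groups, and those of Wnt4 did. Wnt5a held 2.46% ± 0.125 and 4.81% ± 1.62 of the total.

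**Figure D3:**
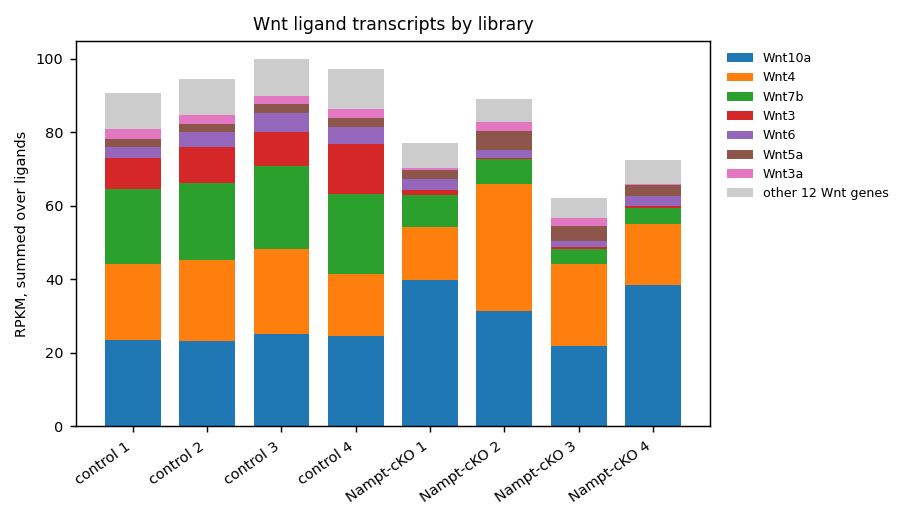
Summed RPKM of the 19 Wnt ligands in each library, stacked by gene, with the 12 least abundant pooled in grey. As shares of the total, green (Wnt7b) and red (Wnt3) go from 22.4% and 10.8% in controls to 7.84% and 0.875% in Nampt-cKO libraries. Blue (Wnt10a) goes from 25.3% to 43.7%. The heights are RPKM and not shares, and Wnt10a in Nampt-cKO replicate 3 (21.9 RPKM) lies below the controls (23.2 to 25.2 RPKM).

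Porcn, the endoplasmic reticulum acyltransferase that Wnt ligands need for secretion, showed the largest rise of all members. It had 9.62, 11.7, 12.6 and 10.3 CPM in controls and 64.4, 63.7, 55.2 and 64.1 CPM in Nampt-cKO libraries. The 4 Nampt-cKO values lay close together and far above the highest control (log2 fold change 2.48, SE 0.11, edgeR adjusted p = 2.26e-06), on chromosome X at 8193846 to 8206546 (GRCm38). Wls, the carrier that takes acylated Wnt to the membrane, moved the other way, from 141 to 154 CPM in controls to 108 to 121 CPM (log2 fold change −0.42, SE 0.07, edgeR adjusted p = 0.00104).

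Of the 12 receptors, 4 rose and Fzd10 fell. Fzd10 had 53.7, 52.6, 53.4 and 44.4 CPM in controls and 12.4, 14.2, 14.6 and 7.35 CPM in Nampt-cKO libraries, a log2 fold change of −2.07 (SE 0.20, edgeR adjusted p = 6.68e-05). Replicate 4 was the lowest library of both groups, and the groups were well apart. Fzd5, a receptor for both branches of the pathway, rose from 26.8, 28.6, 24.0 and 33.5 CPM to 57.3, 58.7, 43.5 and 70.6 CPM (log2 fold change 1.03, SE 0.16, edgeR adjusted p = 6.6e-04). The co-receptor Lrp5 rose from 124, 126, 115 and 116 CPM to 186, 202, 180 and 206 CPM (log2 fold change 0.68, SE 0.07, edgeR adjusted p = 1.12e-04). Neither Fzd5 nor Lrp5 overlapped between the groups. An antisense predicted gene covers 17.8% of the exon bases of Fzd5. Lrp6, the other co-receptor, had 104, 103, 96.0 and 95.1 CPM in controls and 119, 105, 105 and 123 CPM in Nampt-cKO skin, where the groups were also apart but the difference of 0.18 (SE 0.08, log2) did not pass the test (edgeR adjusted p = 0.0865).

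Fzd1, the Frizzled with the highest RPKM in both groups, had 214, 207, 202 and 223 CPM in controls and 454, 278, 218 and 316 CPM in Nampt-cKO libraries (log2 fold change 0.58, SE 0.19, edgeR adjusted p = 0.031). Fzd3, a planar polarity receptor, had 41.3, 39.4, 36.1 and 41.0 CPM and then 78.1, 50.1, 37.4 and 65.8 CPM (log2 fold change 0.55, SE 0.20, edgeR adjusted p = 0.0446). In both genes replicate 1 was the highest and replicate 3 lay in the control range. Both calls were lost without any 1 control or without Nampt-cKO replicate 4, and Fzd3 also without Nampt-cKO replicates 1 or 2 (edgeR adjusted p = 0.0513 to 0.11). Fzd7, next in RPKM, had 121, 127, 95.3 and 144 CPM in controls and 192, 165, 116 and 90.9 CPM in Nampt-cKO libraries, which took in the controls (log2 fold change 0.21, edgeR adjusted p = 0.468). Fzd6 (113 to 132 and 107 to 153 CPM), Fzd2, Fzd4, Fzd8 and Fzd9 overlapped between groups with log2 fold changes of −0.04 to 0.48. The 10 Frizzled genes together came to 126.5 ± 3.41 RPKM in controls and 139.1 ± 36.2 RPKM in Nampt-cKO skin (SD, n = 4), a range of 107.1 to 189.5 that took in the controls. The limit of the RPKM scale given for the ligand sum holds here too. Within that sum Fzd10 went from 11.7% ± 1.24 to 2.49% ± 0.958 and Fzd1 from 33.0% ± 0.685 to 42.2% ± 5.53.

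Of 8 secreted inhibitors tested, 3 rose and 2 fell. Sfrp1, which binds Wnt ligands through a Frizzled-like cysteine-rich domain, had 123, 129, 115 and 125 CPM in controls and 673, 639, 469 and 650 CPM in Nampt-cKO libraries, a log2 fold change of 2.31 (SE 0.12, edgeR adjusted p = 3.7e-06). Dkk3, a divergent Dickkopf protein made in the hair follicle and dermis, rose from 124, 118, 109 and 129 CPM to 375, 311, 199 and 372 CPM (log2 fold change 1.39, SE 0.18, edgeR adjusted p = 3.08e-04). Wif1, which sequesters Wnt proteins, rose from 24.2, 19.7, 22.8 and 24.1 CPM to 97.7, 66.5, 35.5 and 74.4 CPM (log2 fold change 1.59, SE 0.26, edgeR adjusted p = 9.21e-04). In all 3 genes the groups did not overlap and the library labelled Nampt-cKO replicate 3 was the lowest of its group.

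Notum and Sfrp2 fell. Notum, the extracellular esterase that strips the acyl group from Wnt and is itself a β-catenin target, had 18.5, 20.3, 12.8 and 11.9 CPM in controls and 9.43, 1.53, 1.91 and 1.67 CPM in Nampt-cKO libraries. Replicate 1 lay near the lowest control and the other 3 far below it, so the log2 fold change of −2.12 (SE 0.59, edgeR adjusted p = 0.0154) became −3.22 (edgeR adjusted p = 1.66e-05) without Nampt-cKO replicate 1. Antisense genes annotated by GENCODE vM21 (Notumos and Myadml2os) overlap 38.1% of its exon bases, and whether the counting used strand is not given, so their reads cannot be told apart from those of Notum. Sfrp2, a dermal fibroblast inhibitor, had 2.40, 1.74, 2.20 and 2.77 CPM in controls and 1.22, 1.15, 1.16 and 1.09 CPM in Nampt-cKO skin (log2 fold change −0.97, SE 0.26, edgeR adjusted p = 0.0135), with 16.1% of its exon bases shared with another gene. The fibroblast list went in part the same way, at 5121 to 7987 CPM summed in controls and 2227 to 4180 CPM in Nampt-cKO skin, with Col1a1 (−1.63), Col1a2 (−1.71) and Col3a1 (−1.11) lower and Pdgfra (0.88) higher on the log2 scale, and its part in the fall of Sfrp2 was not tested. Dkk2 did not pass the test, with 62.3, 40.8, 56.2 and 54.2 CPM in controls and 74.4, 38.0, 52.2 and 87.1 CPM in Nampt-cKO libraries (log2 fold change 0.24, edgeR adjusted p = 0.452), nor did Sfrp5 (0.58) or Frzb (−0.47). In summed RPKM the 11 inhibitors went from 81.3 ± 3.30 to 226.6 (means of 4), with every Nampt-cKO library (160.0 to 278.7) above every control (78.4 to 85.1). Sfrp1 made up 29.1% ± 1.61 of that sum in controls and 49.3% ± 3.78 in Nampt-cKO skin, and Notum 4.30% ± 1.15 and 0.315% ± 0.286. Dkk3, which is counted in the sum by its name, made up 36.2% ± 1.47 and 31.8% ± 2.12.

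**Figure D4:**
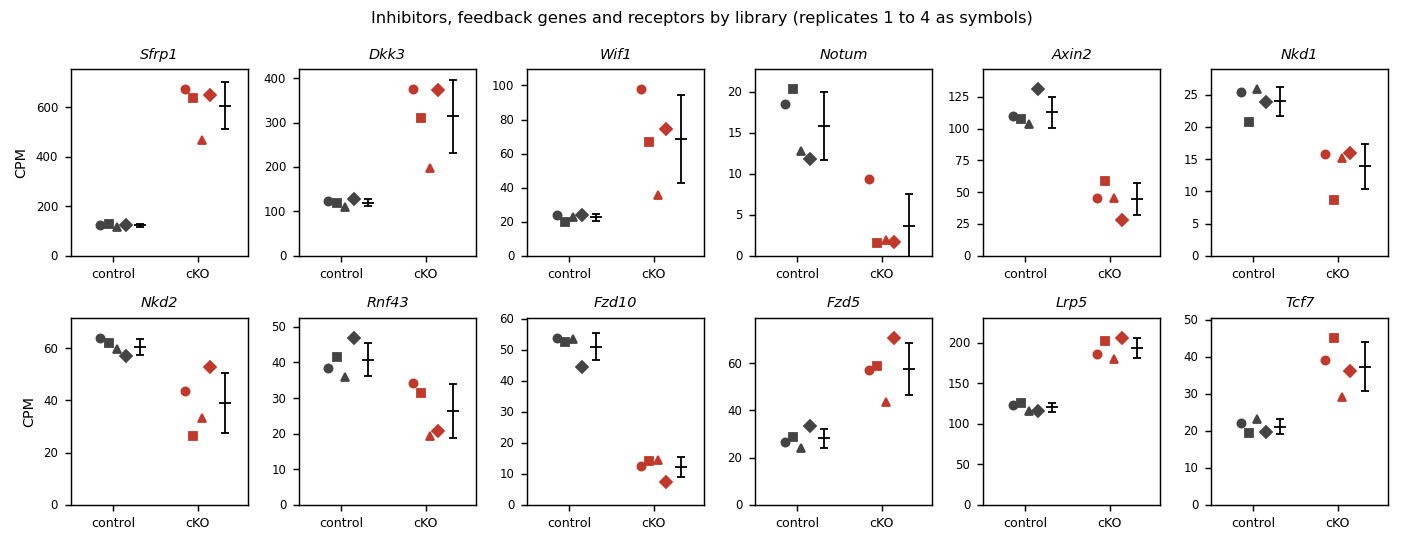
TMM-normalized CPM (vertical axes from 0) in each library for 4 secreted inhibitors, 4 feedback and turnover genes, 3 receptors and Tcf7; symbols are replicates 1 to 4 and black bars the mean ± SD. Sfrp1, Dkk3 and Wif1 stand above their controls in all 4 Nampt-cKO libraries, and Axin2, Nkd1, Nkd2, Rnf43 and Fzd10 below them.

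R-spondins bind Lgr receptors and raise the number of Frizzled receptors at the surface. Rspo3, the R-spondin of dermal papilla and endothelium, had 9.74, 9.29, 9.21 and 16.4 CPM in controls and 1.96, 1.07, 2.44 and 0.287 CPM in Nampt-cKO libraries. Control 4 was the highest and Nampt-cKO replicate 4 the lowest of all, and the groups were well apart (log2 fold change −2.94, SE 0.53, edgeR adjusted p = 0.00169). Of its exon bases 13.1% are shared with a predicted gene. The dermal papilla list summed to 188 to 213 CPM in controls and 178 to 302 CPM in Nampt-cKO skin and the endothelial list to 303 to 347 and 199 to 479 CPM, and their part in the fall of Rspo3 was not tested. Rspo1 did not pass the test, at 12.2, 15.4, 21.0 and 13.9 CPM in controls and 13.3, 13.7, 14.2 and 19.6 CPM in Nampt-cKO skin (log2 fold change −0.04, edgeR adjusted p = 0.892). Rspo4, the R-spondin required for nails in people, had 6.26, 6.23, 7.84 and 7.27 CPM and then 5.85, 3.01, 3.09 and 6.72 CPM, with no call (log2 fold change −0.57, edgeR adjusted p = 0.137), and Rspo2 stayed under 0.5 CPM in every library.

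Intracellular feedback proteins and the ubiquitin ligases of receptor turnover dampen the pathway, and several of them, such as Axin2, Nkd1, Rnf43 and Znrf3, are known to be induced by β-catenin. Of these 6 genes, Axin2, Nkd1, Nkd2 and Rnf43 fell, and Axin1 and Znrf3 did not pass the test. Axin2, a scaffold of the destruction complex, had 110, 108, 103 and 131 CPM in controls and 45.5, 58.5, 45.8 and 28.4 CPM in Nampt-cKO libraries (log2 fold change −1.34, SE 0.19, edgeR adjusted p = 4.65e-04). Nkd1, which binds Dishevelled, had 25.4, 20.8, 25.8 and 23.9 CPM in controls against 15.8, 8.74, 15.1 and 15.9 CPM (log2 fold change −0.78, SE 0.19, edgeR adjusted p = 0.0082). Neither gene overlapped between groups, and Nampt-cKO replicate 2 was the highest of its group for Axin2 and the lowest for Nkd1.

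Nkd2 had 63.8, 61.9, 59.6 and 56.8 CPM in controls and 43.4, 26.5, 33.3 and 52.8 CPM in Nampt-cKO libraries (log2 fold change −0.63, SE 0.19, edgeR adjusted p = 0.02). The call moved just past the threshold without control 1 or Nampt-cKO replicate 3 (edgeR adjusted p = 0.0511 and 0.0516). Rnf43 had 38.6, 41.6, 36.0 and 46.8 CPM in controls and 34.3, 31.4, 19.3 and 20.7 CPM in Nampt-cKO libraries (log2 fold change −0.62, SE 0.19, edgeR adjusted p = 0.0247), and its call was lost without control 2, control 4 or Nampt-cKO replicate 4 (0.0577 to 0.0682). In both genes the groups did not overlap, but 1 Nampt-cKO library came close to the controls. Of the pair that did not pass the test, Axin1 had 86.0, 85.5, 87.0 and 85.8 CPM in controls and 86.1, 106, 98.5 and 112 CPM in Nampt-cKO skin (log2 fold change 0.23, edgeR adjusted p = 0.0565), and Znrf3 had 35.9, 41.1, 34.7 and 36.3 CPM and then 39.7, 40.6, 36.3 and 29.6 CPM (−0.02, edgeR adjusted p = 0.921). Without Nampt-cKO replicate 1, Axin1 was called higher (0.29, edgeR adjusted p = 0.00551).

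Both transducers rose. Ctnnb1, which encodes β-catenin, a part of adherens junctions as well as the nuclear effector, had the highest RPKM of all members. Its level was 694, 673, 650 and 644 CPM in controls and 841, 831, 786 and 756 CPM in Nampt-cKO libraries, a small but non-overlapping difference (log2 fold change 0.27, SE 0.07, edgeR adjusted p = 0.0109), and 15.1% of its exon bases are shared with the antisense gene Ulk4 and with Mir7090. The other members called that share exon bases with another gene, Axin2, Wnt11, Wnt7b and Wnt5a, do so over 3.80% to 8.80%. Tcf7, which encodes the TCF-1 factor of T cells and of Wnt-responsive epithelia, had 22.1, 19.3, 23.3 and 19.6 CPM in controls and 39.0, 44.9, 29.0 and 36.1 CPM in Nampt-cKO skin (log2 fold change 0.82, SE 0.14, edgeR adjusted p = 0.00122). It rose where the T cell list fell: Cd3e went from 10.9 to 0.878 CPM on average (log2 fold change −3.62, edgeR adjusted p = 0.00384).

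Reads within introns, which come largely from unspliced RNA, were compared as a further readout of the same libraries, without a test. Of the 26 members called, 18 had at least 100 intron reads in each group, and the log2 ratio of the mean intron CPM had the sign of the exon fold change in 17, also without the library labelled Nampt-cKO replicate 3. These members were chosen by their exon calls in the same libraries, so a high share of like signs is built in. The share among all genes called was not computed, and the count is no result particular to the members. Porcn went from 4.30 ± 0.587 to 19.4 ± 1.99 intron CPM (SD, n = 4), Sfrp1 from 1.17 ± 0.31 to 7.55 ± 2.67, Axin2 from 16.9 ± 1.5 to 6.15 ± 1.59 and Wnt7b from 5.84 ± 1.28 to 1.53 ± 0.753. None of these 4 overlapped between groups in intron CPM, while Wnt10a, Wnt11, Wnt5a, Wnt6, Fzd3, Nkd2, Wif1 and Tcf7 did. The ratio of Fzd3 rested on Nampt-cKO replicate 4, at 3.10 intron CPM. Its replicates 1 to 3, at 0.381 to 0.593, lay inside the controls (0.0772 to 0.935). Nkd2 was the exception in sign, with 2.64 ± 0.489 and 3.61 ± 0.731, and the ratio of Wnt6 was close to 0 at −0.03. Wnt3 had 456 intron reads over the controls and 50 over Nampt-cKO skin, too few in the latter for the ratio.

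**Figure D5:**
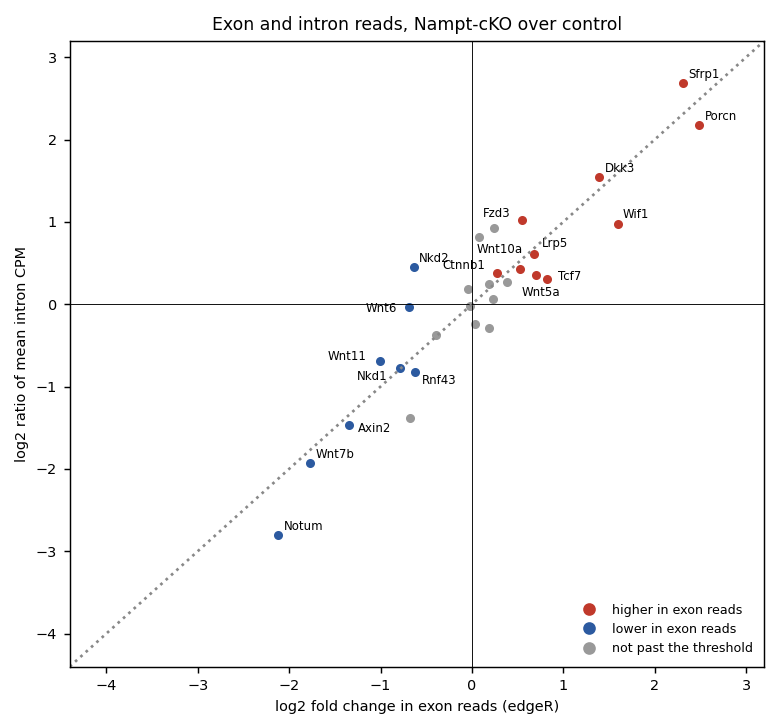
Log2 ratio of mean intron CPM against the log2 fold change of exon reads, Nampt-cKO over control, for members tested with at least 100 intron reads in each group; the dotted line marks equal values. Of the 18 members called by exon reads (named), 17 have the same sign on both axes, and Nkd2 has an exon value of −0.63 with an intron value of 0.45.

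The rest of the pathway, in 5 lists outside the members, was also divided, against 23.8% higher and 22% lower among all genes. Of 20 tested genes for Wnt secretion, co-receptors and surface modulators, 3 were higher and 7 lower (median log2 fold change −0.31). Apcdd1, a membrane inhibitor of Wnt signalling and itself a Wnt target, fell from 212 to 253 CPM in controls to 54.2 to 87.3 CPM (log2 fold change −1.69, SE 0.14, edgeR adjusted p = 3.27e-05). The Dkk receptors Kremen2 (−2.51, SE 0.32) and Kremen1 (−0.56, SE 0.08) fell as well. The destruction complex and Dishevelled list had 6 of 22 higher and 2 lower (median 0.15), led by the tankyrase Tnks2 (0.94, SE 0.12), which marks Axin for degradation, and the casein kinases Csnk1a1 (0.62, SE 0.09), Csnk1g3 (0.66, SE 0.10) and Csnk1d (0.55, SE 0.11).

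Among 17 TCF/LEF factors and nuclear cofactors, 3 were higher and 4 lower (median −0.16). The co-repressor Tle1 rose (0.94, SE 0.12), and the β-catenin partner Bcl9 (−0.51, SE 0.10), the β-catenin inhibitor Ctnnbip1 (−0.83, SE 0.18) and the co-repressor Tle3 (−0.35, SE 0.09) fell. Of 22 β-catenin target genes outside the members, 6 were higher and 5 lower (median −0.13). Lef1, Lgr5 and Apcdd1 of this list also stand in one of the lists above, and Apcdd1 is counted as lower in both of its lists. Tnfrsf19 (Troy) fell from 129 to 180 CPM in controls to 10.3 to 19.7 CPM (log2 fold change −3.45, SE 0.22, edgeR adjusted p = 1.01e-05) and Bmp4 by a log2 fold change of −1.85 (SE 0.21), while the cell-surface glycoprotein Cd44 rose (1.32, SE 0.16). Of 18 planar polarity genes, 3 were higher and 6 lower (median −0.27), among them Daam1 (−0.64, SE 0.08), Vangl1 (0.72, SE 0.09), Celsr1 (−0.61, SE 0.09) and Prickle1 (−1.03, SE 0.16). The edgeR adjusted p of the genes named in these lists was at most 0.0103. Without the library labelled Nampt-cKO replicate 3, the counts higher and lower were 3 and 6 for secretion and surface modulators, 7 and 2 for the destruction complex, 3 and 3 for nuclear cofactors, 8 and 5 for targets, and 3 and 6 for planar polarity. Without Nampt-cKO replicate 1, 8 nuclear cofactors and 8 targets were lower in place of 4 and 5, and 1 nuclear cofactor was higher, in place of 3, without control 1 and without control 2.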

How the data were processed

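Total RNA of skin was sequenced in 8 libraries. The authors' deposited table gives whole-number counts of exon, gene and intron reads per gene and library, which carry no normalization, and RPKM, which the authors made from exon reads and exon length. Its columns of fold changes and p-values by the authors were not used. The submitters' notes name GRCm38 (mm10). The aligner and the counter are not given in the sources at hand. Exon reads numbered 39390895 to 53762935 per library, and at least 61.7% of non-zero counts were even in each, so both reads of a pair may have been counted. Table starts are printed with 1 added, which matches RefSeq for 17985 of 23231 genes whose ends are equal (145 without it).

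Counts were fitted with edgeR 4.0.16 in R 4.3.3 (TMM, filterByExpr, quasi-likelihood test on condition, Benjamini-Hochberg adjustment over 17286 genes, threshold 0.05). Only this edgeR fit was tested on simulated data. Standard errors are the absolute log2 fold change over the root of F. The 21 alternatives included limma 3.58.1, DESeq2 1.42.0, other size factors and filters, pseudocounts of 0.1 and 1 on RPKM, a replicate block and each library left out. Members, lists and tests were chosen with earlier results of these data known. Values per library are given for members past the threshold with at least 1 CPM in a group, for the 3 highest by RPKM of each role, and for Axin2, Ctnnb1, Nkd1, Notum and Tcf7. Up to 4 genes by p-value are named for each of 5 pathway lists. Markers of 17 cell types were counted.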

Additional observations from a re-analysis of the deposited data

Results flagged for a closer look

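In 8 of 64 groups of 4 libraries (32 members in 2 groups), 1 library lay far from the other 3, with a gap to its neighbour past Dixon's critical value. Chance alone would mark about 1 in 20 such groups. Nampt-cKO replicate 1 was high for Wnt3 (5.19 CPM, the others 1.62 to 2.19) and for Notum (9.43, the others 1.53 to 1.91). Nampt-cKO replicate 2 was low for Nkd1 (8.74, the others 15.1 to 15.9). The library labelled Nampt-cKO replicate 3 was low for Porcn (55.2, the others 63.7 to 64.4) and for Sfrp1 (469, the others 639 to 673). Nampt-cKO replicate 4 was high for Rspo1 (19.6, the others 13.3 to 14.2). Control 4 was high for Rspo3 (16.4, the others 9.21 to 9.74) and low for Fzd10 (44.4, the others 52.6 to 53.7). The cause of these values was not tested.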

How the results depend on the processing

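Over 21 alternatives, 672 comparisons for 32 members gave 613 with the same direction and call, 49 in which a call was lost, 3 in which one was gained (Axin1) and 7 in which the sign turned. The 7 were all of members not called in either fit: Rspo1 with limma-voom (log2 fold change 0.0588) and without control 3 or Nampt-cKO replicates 1 or 2 (−0.18 to 0.13 over the left-out libraries), Wnt4 without Nampt-cKO replicate 2 (−0.12 to 0.35), and Znrf3 without control 2 or Nampt-cKO replicate 4 (−0.0713 to 0.0725). Of all 48 members tested, 0 of the 26 called and 8 of the 22 others changed sign under some alternative. Of those 26 calls, 18 held under every alternative and 8 were lost under at least 1: Wnt6, Wnt10a, Wnt5a, Fzd1, Fzd3, Nkd2, Rnf43 and Ctnnb1. Beside the left-out libraries, Wnt10a, Wnt5a, Fzd1 and Fzd3 were lost with limma on RPKM, Fzd1 and Fzd3 with upper-quartile factors (adjusted p = 0.0551 and 0.0738), Fzd3 with no composition factors (0.0619), Wnt6 with limma-voom (0.0559), and Ctnnb1 with limma on RPKM alone (adjusted p = 0.0634 to 0.126). With limma on log2(RPKM + 0.1) and on log2(RPKM + 1), 7 members were higher in place of 12, all 7 among the 12, and 14 were lower under both. The cause was not tested. Leaving out 1 library at a time gave 8 to 13 members higher and 12 to 14 lower, with the lowest count of higher members, 8, without any 1 control. All genes past the threshold then numbered 6526 to 9009. In the pathway lists, the lower count of the destruction complex list (2) was 4 with DESeq2 and with limma on RPKM and 1 with no filter, with total gene reads, without any 1 control or without Nampt-cKO replicate 2, and the higher count of nuclear cofactors (3) was 1 with limma on RPKM. The labels do not say that replicate numbers pair the groups. After the group means were removed, libraries with the same number correlated at −0.054, 0.040, 0.179 and 0.113. Libraries with different numbers correlated at −0.230 to 0.140. These few small values cannot decide whether the groups were paired. With the replicate block, 12 members were higher and 13 lower, and Wnt6 was the call lost (log2 fold change −0.70, adjusted p = 0.0714).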
